A study of Mus musculus with 4 samples.

Results

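Genes named Gpr were given that name as presumed G protein-coupled receptors whose ligand was unknown when they were cloned. The 56 probes described here, of 50 genes, were those named Gpr plus a number, with or without 1 further letter, that the scanner software marked as well above background on each array of the high-fat diet, of the low-fat diet or of both. Metabolite receptors for lactate, nicotinic acid and short-chain fatty acids (Gpr81, Gpr109a, Gpr109b and Gpr43) were not among them. The array held 129 such probes of 91 genes among 41174 probes in all, and 26054 probes passed the same detection rule and were tested. Because the flags come from the arrays that are compared, counts and medians over the members are descriptions of these arrays.

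The 4 one-colour Agilent arrays measured RNA of white adipose tissue, with no depot named, from female C57BL/6 mice that were 8 weeks of age when the diets began and ate them for 18 weeks. Of these arrays, 2 were from mice on the high-fat diet (HFD; High fat diet 32, CLEA Japan) and 2 from mice on the low-fat diet (LFD; CE2, CLEA Japan). Each sample was mixed from 3 mice and 500 ng of RNA was labelled. The labels do not say whether the 2 samples of a diet came from separate mice, so the p-values speak only of how far these samples lie apart, and that spread may be technical.

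A G protein-coupled receptor sits in the cell membrane, binds a ligand outside the cell and switches on a heterotrimeric G protein inside it. The G protein's alpha subunit and its beta-gamma dimer then act on effectors such as adenylyl cyclases and phospholipases C, regulators of G protein signalling (RGS proteins) shorten the signal, and arrestins end it and take the receptor into the cell. Adhesion receptors, the class to which many Gpr names belong, carry long extracellular domains that touch other cells or the matrix and cut themselves near the membrane. In adipose tissue such receptors are carried by adipocytes and also by macrophages, lymphocytes, vessels and the cells that cover the depot.

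The word orphan no longer describes all members. Gpr65 and Gpr4 sense protons, Gpr77 (now C5ar2) binds the complement fragment C5a, Gpr44 (now Ptgdr2) binds prostaglandin D2, Gpr183 binds oxysterols, Gpr30 (now Gper1) is described as an estrogen receptor, Gpr1 binds chemerin, and Gpr182 takes up chemokines. Another 7 member genes carry the name without being G protein-coupled receptors in the usual sense, namely Gpr89, Gpr107, Gpr108, Gpr137, Gpr137b, Gpr155 and Gpr180, which encode membrane proteins of the Golgi, the lysosome or other compartments. Members were therefore set apart as leukocyte receptors (10 probes), adipocyte receptors (1 probe), adhesion receptors (12 probes), other receptors (23 probes) and proteins that are not receptors (10 probes), by where each is best known.

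Levels are given as log2 of the signal over the 75th percentile of its array, so that 0 is the 75th percentile and each unit is a doubling within a probe. Differences are HFD minus LFD on the same scale, tested with limma and adjusted by the Benjamini-Hochberg method over the 26054 probes, and a probe is said to have risen or fallen where the adjusted p was under 0.05. Flagged as well above background were 27248 and 21312 probes on the HFD arrays, against 26419 and 27936 probes on the LFD arrays. HFD replicate 2 thus flagged the fewest, and it also flagged the fewest members, 46 of 56, where the other 3 arrays flagged 54 to 56. Arrays of the same diet correlated at r = 0.992 for HFD and 0.989 for LFD over the tested probes, and arrays of different diets at 0.965 to 0.971. The tissue label was checked on adipocyte markers (12 of 12 measured, with adiponectin, perilipin and leptin among them), whose summed signals were 1590 and 1693 times the 75th percentile on the HFD arrays, against 1624 and 1804 times on the LFD arrays.

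Of the 56 members, 5 rose in HFD tissue (8.93%, against 5.65% of all tested probes) and 3 fell (5.36%, against 4.99% of all tested probes). Those that rose included the leukocyte receptors Gpr65 and Gpr77, the endothelial chemokine scavenger Gpr182, and Gpr137b, a lysosomal membrane protein that is not a receptor. The 3 that fell were the adhesion receptor Gpr64 and 2 of the 3 probes of the adhesion receptor Gpr133. Of these 2, A_52_P787208 entered the test through the LFD arrays alone, where it is high, so the detection rule fixed its direction in part, and 2 falls were found among members flagged on all 4 arrays. An unadjusted limma p under 0.05 was found for 17 of the 56 members and for 8870 of the 26054 tested probes, so members did not exceed the background in this. The members' differences ran from -3.03 to 1.59 with a median of 0.25, where the median of all tested probes was 0.03. Both HFD arrays were above both LFD arrays for 29 members (51.8%, against 37.0% of all tested probes), both were below for 7 (12.5%, against 30.9%), and the diets overlapped for 20. LFD replicate 1 was the lowest of the 4 arrays for 32 of the 56 members (57.1%), against 39.2% of all tested probes. Its negative control spots were also the dimmest, with a median raw signal of 72.6, where the other arrays had 106 and 119 (HFD) and 96.5 (LFD); the part of this in the members' differences was not tested.

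**Figure D1:**
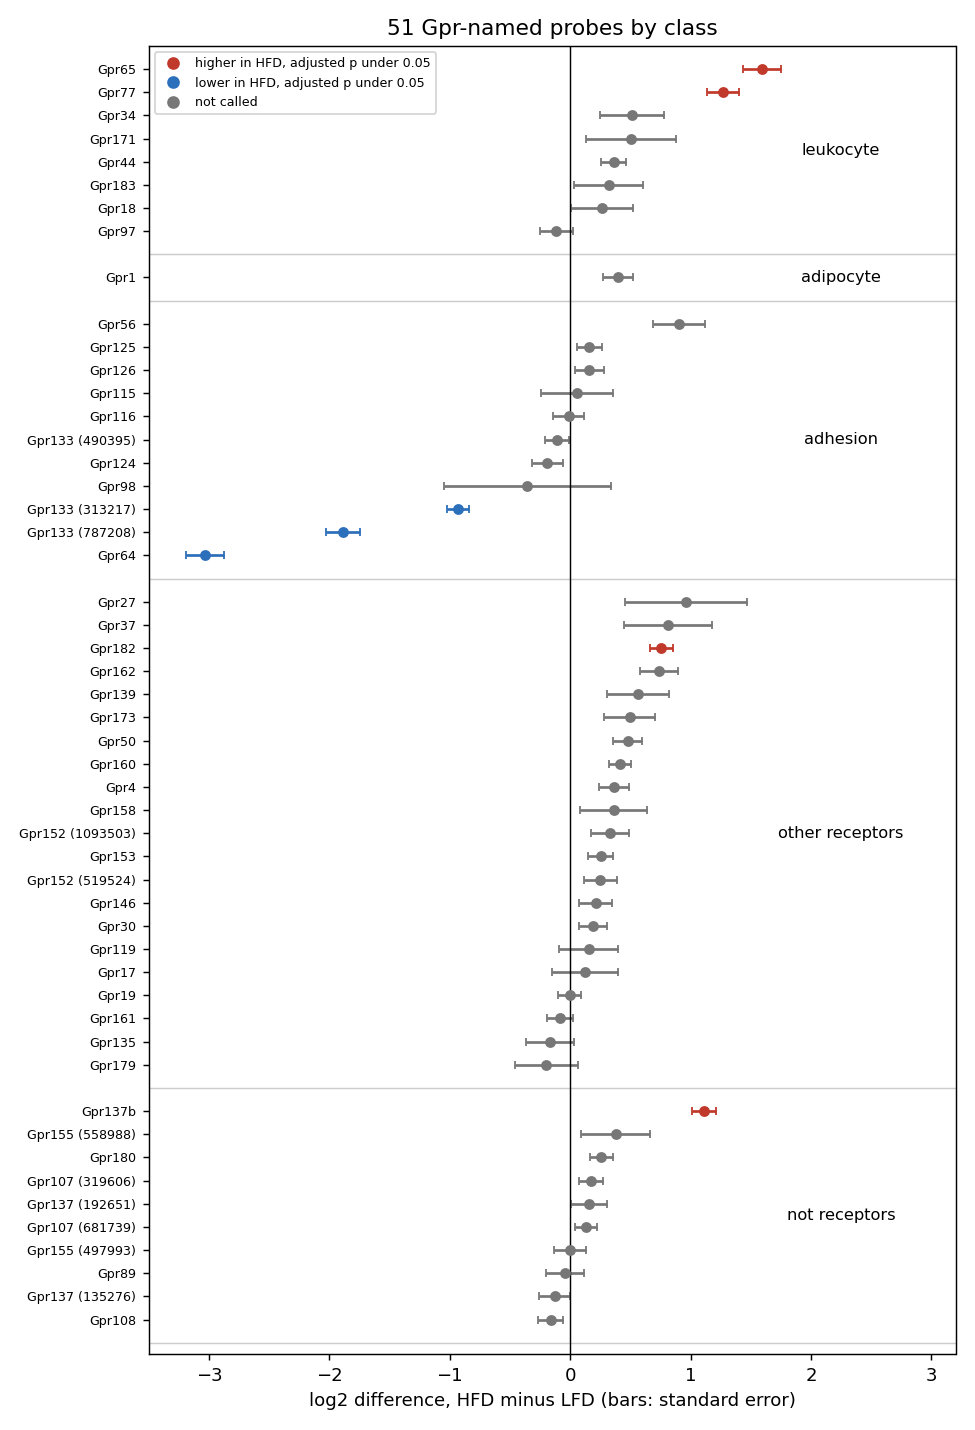
Difference between diets (HFD minus LFD, log2, x axis) of 51 of the 56 member probes, 1 row a probe, grouped by class, with bars of 1 standard error; numbers in brackets tell probes of the same gene apart. Red points rose, blue points fell and grey points did not pass the test; Gpr65 lies at 1.59, Gpr77 at 1.27 and Gpr64 at -3.03.

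The median difference among leukocyte receptors was 0.51. Of their 10 probes, 0 fell (against 4.99% of all tested probes) and 3 rose (30%, against 5.65%). They included Gpr65, a proton sensor that couples the acidity outside a cell to G proteins, and C5ar2, a receptor for C5a that signals through arrestin rather than G proteins. Gpr65, a receptor of macrophages and lymphocytes measured by a probe at chr12:99514727-99514786 of mm9, had levels of 0.71 and 0.73 on the HFD arrays, against -0.69 and -1.06 on the LFD arrays. Both HFD arrays were thus high and both LFD arrays low, with a wide gap between the diets. Gpr65 was 3.02-fold higher in HFD tissue (log2 difference 1.59, SE 0.16, limma adjusted p = 0.0202). In bulk tissue, more cells that carry a receptor and more RNA per cell cannot be told apart.

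Gpr77 (C5ar2), measured at chr7:16820101-16820160 of mm9, had levels of 0.18 and -0.07 on the HFD arrays, against -1.15 and -1.27 on the LFD arrays. The diets did not overlap, and each pair of arrays lay close together. The transcript was 2.40-fold higher in HFD tissue (log2 difference 1.27, SE 0.13, limma adjusted p = 0.0215).

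**Figure D2:**
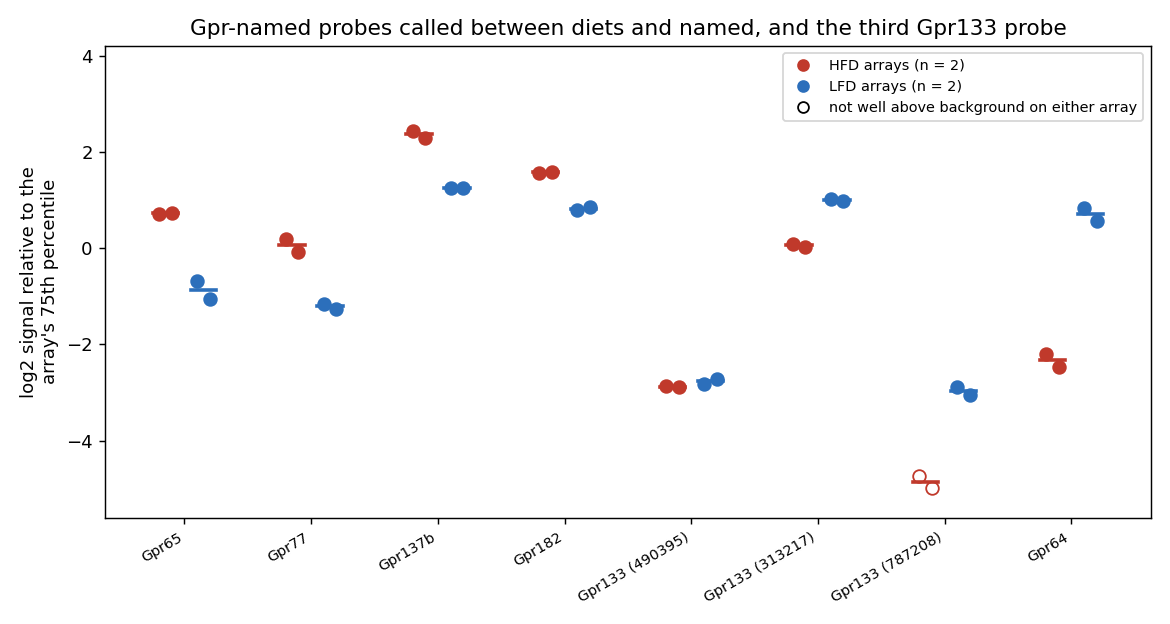
Level of 7 called member probes on every array (log2 of signal over the 75th percentile, y axis), HFD arrays in red left of LFD arrays in blue, with lines at the diet means; the third Gpr133 probe, which was not called, is shown beside the others. The diets do not overlap at any probe shown, and open symbols mark a probe that neither array of that diet measured well above background.

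The other 7 leukocyte receptors did not pass the test, with differences from -0.11 to 0.51. Gpr34, a lysophosphatidylserine receptor of macrophages and microglia, had levels of -0.81 and -1.08 in HFD tissue and -1.12 and -1.79 in LFD tissue (log2 difference 0.51, limma adjusted p = 0.246). Gpr171, a receptor of T cells among others, had levels of -2.10 and -1.71 in HFD tissue and -1.92 and -2.90 in LFD tissue (0.50, limma adjusted p = 0.383). Gpr183, which guides B cells and dendritic cells within lymphoid tissue, had levels of 0.02 and -0.03 in HFD tissue and 0.07 and -0.72 in LFD tissue (0.32, limma adjusted p = 0.464). For Gpr171 and Gpr183 the diets overlapped, because LFD replicate 1 lay within or above the HFD arrays and LFD replicate 2 lay below them. Gpr18, a receptor of lymphocytes, showed the same order, with levels of -3.30 and -2.86 in HFD tissue and -3.07 and -3.62 in LFD tissue (0.26, limma adjusted p = 0.503). Without LFD replicate 2 the differences of Gpr183 and Gpr18 turned to -0.073 and -0.0094. The others that did not pass included Gpr44 and the adhesion-type receptor Gpr97.

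Macrophage markers rose beside these receptors, while the other leukocyte lists did not share a direction. Of 14 macrophage markers, all measured, 10 rose and 0 fell, where 6.03% of all genes rose and 5.31% fell. Their median difference was 1.34, against 0.04 over all genes. Their summed signals were 425 and 434 times the 75th percentile on the HFD arrays, against 228 and 203 times on the LFD arrays. B cell markers (6 of 8 measured, 0 called) summed to 1.68 and 2.44 on the HFD arrays, against 6.87 and 1.25 on the LFD arrays. T or NK cell markers (10 of 12 measured, of which 1, Klrb1c, rose) summed to 4.28 and 5.89 on the HFD arrays, against 6.97 and 2.26 on the LFD arrays. LFD replicate 1 therefore had more lymphocyte marker signal than LFD replicate 2, as it had more Gpr171, Gpr183 and Gpr18. Neutrophil markers (5 of 10 measured, of which 2 rose and 1 fell) summed to 2.81 and 2.81 on the HFD arrays, against 2.05 and 1.75 on the LFD arrays. The part of these cell types in the receptors' differences was not tested.

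**Figure D3:**
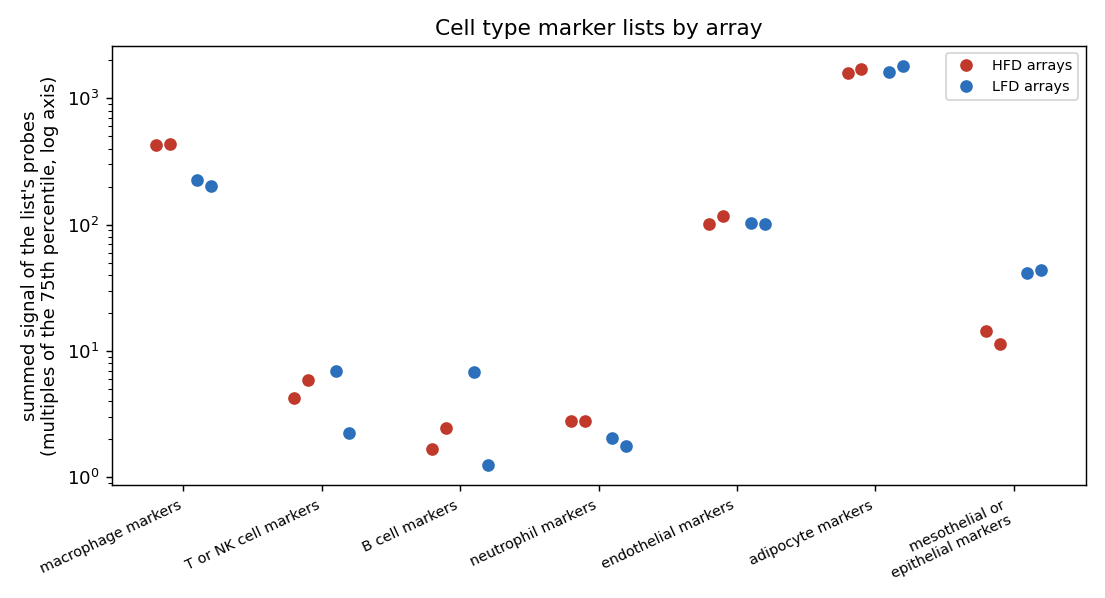
Summed signal of the markers of each cell type on every array (multiples of the array's 75th percentile, log axis), HFD arrays in red left of LFD arrays in blue. Macrophage sums are 425 and 434 in HFD tissue against 228 and 203 in LFD tissue, the lymphocyte sums of LFD replicate 1 stand above those of LFD replicate 2, and mesothelial or epithelial sums are lower in HFD tissue.

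Gpr65 and C5ar2 rose together, and the 250 bases before their annotated starts, from RefSeq on GRCm38.p6, are shown for this reason. They were searched on both strands for GGAAGT, the core bound by Ets factors such as PU.1, which directs macrophage genes; capitals mark it. The motif was in 6485 of 32851 promoter windows of this length (19.7%) and in 10 of 49 windows of the 35 member genes that matched the promoter table (20.4%). The Gpr65 window (chr12:98268385-98268634, plus strand, 36.8% G and C) held 0 matches and the C5ar2 window (chr7:16244155-16244404, minus strand, 55.2% G and C) held 2, written here 5′ to 3′. A further annotated C5ar2 window held 0. A match is a description of these letters and not a binding site.
Gpr65: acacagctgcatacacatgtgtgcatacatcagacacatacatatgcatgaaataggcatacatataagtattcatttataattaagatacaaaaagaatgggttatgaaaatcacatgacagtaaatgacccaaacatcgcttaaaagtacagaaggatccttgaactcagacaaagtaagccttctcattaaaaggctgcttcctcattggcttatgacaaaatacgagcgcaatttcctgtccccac
C5ar2: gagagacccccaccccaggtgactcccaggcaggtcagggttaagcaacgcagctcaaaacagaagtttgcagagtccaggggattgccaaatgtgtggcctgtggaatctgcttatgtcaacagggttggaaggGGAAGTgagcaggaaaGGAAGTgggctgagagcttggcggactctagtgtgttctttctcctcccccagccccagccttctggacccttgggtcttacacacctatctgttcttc

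The class of leukocyte receptors was measured in part only, since 10 of its 19 genes on the array had a member probe. Gpr84, a receptor for medium-chain fatty acids on macrophages and neutrophils, lay just outside the detection rule, with levels of -3.48 and -3.30 in HFD tissue and -6.38 and -4.13 in LFD tissue, and was well above background on 1 HFD array and 0 LFD arrays. Gpr132, Gpr35, Gpr55 and Gpr141 were well above background on none of the 4 arrays. These receptors therefore have no tested difference here. Just inside the rule, 12 members passed through the arrays of 1 diet alone, 10 through LFD and 2 (Gpr27 and Gpr37) through HFD. Across the array 73 of the 129 Gpr-named probes were left out, 48 of them well above background on 0 arrays and 25 on 1 or 2 arrays, and 41 genes had no member probe.

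Adipocyte receptors gave a single member. Gpr1, a chemerin receptor and so a receptor for a hormone that adipocytes secrete, had levels of -2.41 and -2.24 on the HFD arrays, against -2.81 and -2.62 on the LFD arrays. Both HFD arrays lay above both LFD arrays, yet the difference of 0.39 (SE 0.12) did not pass the test (limma adjusted p = 0.115). Gpr3, a constitutively active receptor that raises cAMP in brown fat cells, was well above background on 0 arrays. Gpr39, a zinc-sensing receptor, was well above background on 1 HFD array. No probe carried the name Gpr120 (the long-chain fatty acid receptor) or Gpr177 (now Wls, which carries Wnt proteins), and neither was analysed here.

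The class of 12 adhesion receptor probes leaves out adhesion-type receptors counted with the leukocyte class, such as Gpr97. Of these 12 probes, 3 fell (25%, against 4.99% of all tested probes) and 0 rose (against 5.65%), with a median difference of -0.06. Of the 3 that fell, 2 were flagged on all 4 arrays, and the third, Gpr133 probe A_52_P787208, on the LFD arrays alone. Gpr64 (now Adgrg2), known from the efferent ducts and epididymis and measured at chrX:156935668-156935727 of mm9, had levels of -2.19 and -2.46 on the HFD arrays, against 0.84 and 0.57 on the LFD arrays. The HFD arrays were both far below the LFD arrays. Gpr64 was 8.19-fold lower in HFD tissue (log2 difference -3.03, SE 0.16, limma adjusted p = 0.0140), the largest difference in size among the 56 members, and the HFD minus LFD difference lay between -3.17 and -2.43 under the 13 alternative settings tried. The call was lost in 4 of these, with no filter on dim probes, with the replicate block and without either HFD array (highest limma adjusted p = 0.106).

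Markers of mesothelial or epithelial cells, which line the surface of fat depots or form ducts, moved the same way. Of 11 such markers 10 were measured and 10 fell (5.31% of all genes fell), with a median difference of -1.88 (0.04 over all genes). Among them, Cdh1 lay at -5.08 on both HFD arrays, below the lowest signal well above background there (-4.24 and -3.09). It was tested only because both LFD arrays flagged it, so the detection rule fixed its direction in part. Their summed signals were 14.5 and 11.4 times the 75th percentile on the HFD arrays, against 41.5 and 43.6 times on the LFD arrays. Keratin 18 (Krt18), for example, had levels of 0.12 and -0.16 in HFD tissue and 2.67 and 2.69 in LFD tissue. The part of these cells in the lower Gpr64 signal was not tested.

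The promoter window of Adgrg2 is shown because this gene had the members' largest difference. It lay at chrX:160390440-160390689 of GRCm38.p6 on the plus strand, contained 75.6% G and C where the median of all windows was 52.4%, and held 0 matches to GGAAGT.
Adgrg2: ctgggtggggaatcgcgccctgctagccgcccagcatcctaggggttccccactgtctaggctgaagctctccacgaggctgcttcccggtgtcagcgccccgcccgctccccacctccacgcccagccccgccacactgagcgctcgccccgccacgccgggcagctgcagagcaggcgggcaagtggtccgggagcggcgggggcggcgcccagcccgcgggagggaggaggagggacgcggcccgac

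Gpr133 (now Adgrd1), an adhesion receptor that couples to the G protein that raises cAMP, was read by 3 probes on chromosome 5. Probe A_52_P313217, at chr5:129710198-129710257 of mm9 and assigned to transcript NM_001081342, had levels of 0.09 and 0.03 on the HFD arrays, against 1.01 and 0.97 on the LFD arrays. The diets did not overlap, and the signal was 1.91-fold lower in HFD tissue (log2 difference -0.93, SE 0.09, limma adjusted p = 0.0205). Probe A_52_P787208, at chr5:129605874-129605933 and assigned to the Ensembl transcript ENSMUST00000155590, reached the well-above-background flag on neither HFD array. Its levels were -4.72 and -4.99 on the HFD arrays, against -2.88 and -3.05 on the LFD arrays. With the probe's HFD levels set to the lowest signal well above background on each HFD array, it was 1.62-fold lower in HFD tissue. That fold is not a minimum for the probe, since its normexp difference, given below, was smaller. The limma adjusted p of its measured values was 0.0148, but the probe was tested only because both LFD arrays flagged it, so this p does not support a fall. With the normexp background correction its difference was -0.32 and did not pass the test (limma adjusted p = 0.147).

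The third Gpr133 probe, A_52_P490395, belongs to the same transcript as A_52_P313217. It had levels of -2.86 and -2.89 on the HFD arrays, against -2.82 and -2.71 on the LFD arrays. The HFD arrays lay slightly below the LFD arrays, and the difference of -0.11 (SE 0.10) did not pass the test (limma adjusted p = 0.467). With the normexp background correction it turned to 0.15. Its 60 bases align to chr5:129684006-129685081 of mm9, a span of 1076 bases, so the probe crosses a junction between exons. Its sequence is shown, on the plus strand, because it is the Gpr133 probe that did not pass the test.
A_52_P490395: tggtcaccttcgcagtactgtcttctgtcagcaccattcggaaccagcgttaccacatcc

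The remaining 9 adhesion probes, this one among them, did not pass the test. Gpr56 (now Adgrg1), a collagen-binding receptor known from brain development and from natural killer cells, had levels of 2.88 and 2.85 on the HFD arrays, against 1.68 and 2.24 on the LFD arrays. The HFD arrays lay above the LFD arrays, which were far apart, and the difference was 0.91 (SE 0.21, limma adjusted p = 0.0710). It passed the threshold with normexp (limma adjusted p = 0.0376), when probes had to be well above background on all 4 arrays (0.0447), with trended and robust variances (0.0425) and without LFD replicate 2 (0.0498).

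Other adhesion receptors, of vessels and stroma, did not pass either. Gpr116 (now Adgrf5), a receptor of endothelium and of lung surfactant control, had levels of 0.70 and 0.47 in HFD tissue and 0.52 and 0.67 in LFD tissue, which overlap (-0.01, limma adjusted p = 0.954). Gpr124 (now Adgra2), needed for vessel growth in the brain, had 1.08 and 1.11 in HFD tissue and 1.42 and 1.15 in LFD tissue (-0.19, limma adjusted p = 0.353). Gpr125 (now Adgra3), an adhesion receptor linked to Wnt signalling, had 1.56 and 1.50 in HFD tissue and 1.31 and 1.43 in LFD tissue (0.16, limma adjusted p = 0.316). Gpr124 was slightly lower and Gpr125 slightly higher on both HFD arrays than on the LFD arrays, within what the test leaves uncalled. Gpr126 (now Adgrg6), known from Schwann cells, had -2.38 and -2.25 in HFD tissue and -2.37 and -2.57 in LFD tissue (0.16, limma adjusted p = 0.401). Endothelial markers (12 of 12 measured, 0 called) summed to 100.3 and 117 on the HFD arrays, against 103 and 101 on the LFD arrays. Gpr98 and Gpr115 were among the rest of the class, within its uncalled range of -0.36 to 0.91.

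Of the 23 probes for other receptors, 1 rose (4.35%, against 5.65% of all tested probes) and 0 fell (against 4.99%), with a median difference of 0.33. The 1 that rose was Gpr182, an endothelial receptor of lymphatic and sinusoidal vessels that binds chemokines without G protein signalling, measured at chr10:127186757-127186816 of mm9. Its levels were 1.56 and 1.59 on the HFD arrays, against 0.78 and 0.85 on the LFD arrays. Arrays of a diet lay close together and far from those of the other diet. At this probe Gpr182 was 1.69-fold higher in HFD tissue (log2 difference 0.76, SE 0.09, limma adjusted p = 0.0259). A second Gpr182 probe, A_52_P620496, was far dimmer, with levels of -3.81 and -4.02 on the HFD arrays, against -5.05 and -4.24 on the LFD arrays. It was well above background on 1 HFD array and was not tested. Of 12 endothelial markers 0 were called, and their median difference was 0.13. The part of endothelial cells in the Gpr182 difference was not tested.

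The other 22 probes of this class, of 21 genes, did not pass the test, with differences from -0.62 to 0.96. Gpr162, an orphan receptor of the brain, had levels of -1.56 and -1.39 on the HFD arrays, against -2.04 and -2.38 on the LFD arrays. Its diets did not overlap (log2 difference 0.73, limma adjusted p = 0.0611), and it passed the threshold under 3 alternatives: with normexp (limma adjusted p = 0.0265), with all 4 arrays required above background (0.0371) and with trended and robust variances (0.0322).

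The largest uncalled differences of the class belonged to Gpr27 and Gpr37, which passed the detection rule through the HFD arrays alone. Gpr27, an orphan receptor of brain and pancreatic islets, had levels of -2.74 and -2.77 in HFD tissue and -4.44 and -3.00 in LFD tissue (log2 difference 0.96, limma adjusted p = 0.250). Gpr37, a receptor of oligodendrocytes, had levels of -3.44 and -2.94 in HFD tissue and -4.46 and -3.55 in LFD tissue (0.81, limma adjusted p = 0.202). In both, LFD replicate 1 stood far below the other 3 arrays. Without it the difference of Gpr27 was 0.24 and that of Gpr37 was 0.36, while without LFD replicate 2 they were 1.69 and 1.27. Both were tested only because the HFD arrays flagged them, so the detection rule fixed these directions in part.

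Receptors known from vessels, liver and hormone action did not pass the test. Gpr4, a proton sensor of endothelium like Gpr65 in leukocytes, had levels of -1.38 and -1.28 in HFD tissue and -1.82 and -1.58 in LFD tissue (log2 difference 0.37, limma adjusted p = 0.129). Gpr146, known from cholesterol control in the liver, had 1.86 and 1.77 in HFD tissue and 1.46 and 1.75 in LFD tissue (0.21, limma adjusted p = 0.326). Gpr30 (Gper1) had -1.17 and -1.37 in HFD tissue and -1.52 and -1.40 in LFD tissue (0.19, limma adjusted p = 0.320). The HFD arrays of these 3 receptors all lay above the LFD arrays, by margins that did not pass the test. The others of the class included Gpr17, Gpr19, Gpr50, Gpr119, Gpr135, Gpr139, Gpr152 with 2 probes, Gpr153, Gpr158, Gpr160, Gpr161, Gpr173 and Gpr179, many of them best known from brain or sense organs.

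Among the 10 probes of proteins that are not receptors, 1 rose (10%, against 5.65% of all tested probes) and 0 fell (against 4.99%). Their median difference was 0.15. Gpr137b, a lysosomal membrane protein of macrophages and osteoclasts that acts on mTORC1, was measured at chr13:13450893-13450952 of mm9. Its levels were 2.44 and 2.30 on the HFD arrays, against 1.25 and 1.26 on the LFD arrays. The LFD arrays were nearly equal and both HFD arrays well above them. Gpr137b was 2.16-fold higher in HFD tissue (log2 difference 1.11, SE 0.10, limma adjusted p = 0.0184), beside the 10 of 14 macrophage markers that rose; their part in its difference was not tested.

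The other 9 probes of this class lay between -0.16 and 0.38 and did not pass the test. Gpr180, a membrane protein linked to TGF-beta signalling, had levels of 2.27 and 2.32 in HFD tissue and 1.98 and 2.09 in LFD tissue (log2 difference 0.26, limma adjusted p = 0.156). Gpr108, a Golgi membrane protein, had 2.53 and 2.65 in HFD tissue and 2.80 and 2.71 in LFD tissue (-0.16, limma adjusted p = 0.330). Its relative Gpr107 had 1.27 and 1.37 in HFD tissue and 1.17 and 1.12 in LFD tissue at probe A_52_P319606 (0.17, limma adjusted p = 0.276). In these 3 the diets did not overlap, and the steps between them were small beside that of Gpr137b. The rest were the second Gpr107 probe, Gpr89, and both probes each of Gpr137 and Gpr155.

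**Figure D4:**
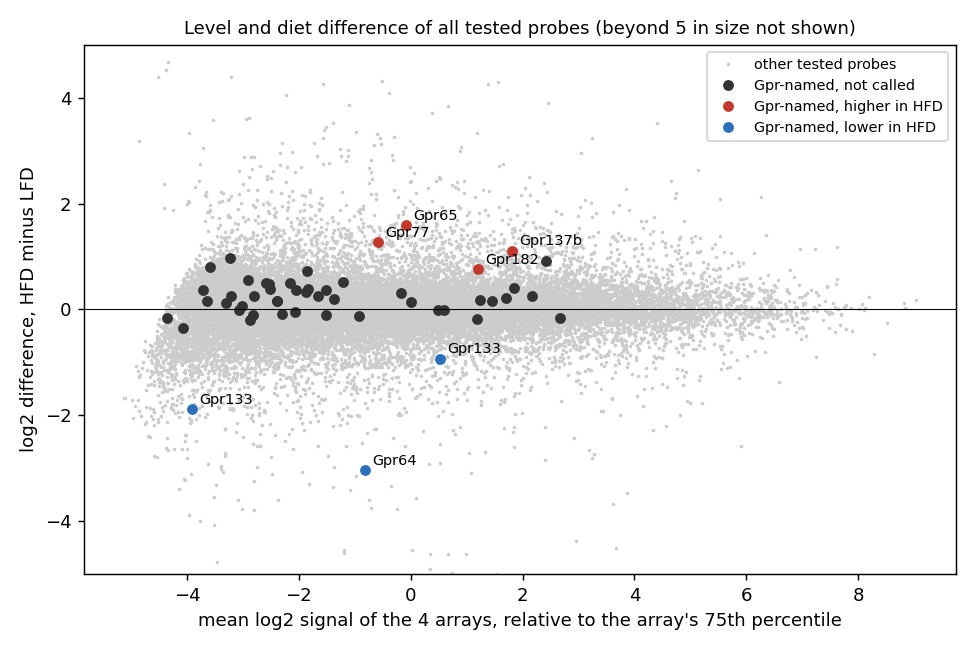
Difference between diets (HFD minus LFD, log2, y axis) against mean level (log2 signal relative to the 75th percentile, x axis) of the tested probes in grey, with 51 of the 56 members in black, red (rose) and blue (fell). Many members lie at the dim end, and the called members drawn are spread from dim to bright levels.

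Many members were dim, and level was looked at for this reason. Below a mean level of -2 lay 29 members with a median difference of 0.25, and 8978 tested probes with a median of 0.09. Of these members 1 rose and 1 fell (3.45% each, against 4.12% and 4.85% of the tested probes of that range). The 1 that fell was Gpr133 probe A_52_P787208, flagged on the LFD arrays alone. Between -2 and 0 lay 14 members (median 0.33), where the tested probes had a median of -0.01. There 2 members rose (14.3%, against 6.10% of the tested probes) and 1 fell (7.14%, against 5.44%). Above 0 lay 13 members (median 0.17), where the tested probes had a median of 0.03. In this range 2 members rose (15.4%, against 6.68% of the tested probes) and 1 fell (7.69%, against 4.82%). The members' median was thus above that of all tested probes in each range. Scaling to each array's median in place of its 75th percentile lowered the median of all tested probes to -0.08 and that of the members to 0.14, and left the members' 5 rises and 3 falls as they were, while the calls over all tested probes became 4.35% higher and 7.01% lower.

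Most calls were lost when 1 array was left out. Without HFD replicate 1, 0 of the 8 called probes passed (limma adjusted p from 0.0616 to 0.120), and without HFD replicate 2, again 0 passed (0.0643 to 0.163). In those fits 15 and 11 members had an unadjusted p under 0.05. Without LFD replicate 1, Gpr65 and Gpr64 passed, and without LFD replicate 2, Gpr65, Gpr64 and Gpr133 probe A_52_P787208 passed. This Gpr133 probe was tested only because both LFD arrays flagged it, so its pass does not support a fall. Each direction stayed as it was, with Gpr65 between 1.41 and 1.78, Gpr77 between 1.14 and 1.39, Gpr137b between 1.04 and 1.18 and Gpr182 between 0.72 and 0.79 as single arrays were left out.

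The other genes of the pathway were read beside the receptors from lists of G protein subunits, of regulators and of effectors. Of 77 genes 68 were measured, each by its brightest tested probe. Of these 8 rose (background 6.03% of genes) and 2 fell (background 5.31% of genes), with a median difference of 0.13, where that of all genes was 0.04. The genes named are those of smallest p in each list.

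Among 26 of 28 G protein subunit genes measured, 2 rose and 0 fell, with a median difference of 0.11. Gng2, a gamma subunit, had levels of 2.32 and 2.31 on the HFD arrays, against 1.01 and 1.06 on the LFD arrays, and was 2.43-fold higher in HFD tissue (limma adjusted p = 0.0146). Gna12, an alpha subunit, had 3.78 and 3.64 on the HFD arrays, against 2.97 and 3.11 on the LFD arrays, and was 1.59-fold higher (limma adjusted p = 0.0418). In neither gene did the diets overlap.

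Regulators moved both ways: of 21 of 25 genes measured, 5 rose and 2 fell, with a median difference of 0.18. Rgs1, an RGS protein of leukocytes, had levels of 1.34 and 0.81 on the HFD arrays, against -1.95 and -2.36 on the LFD arrays, and was 9.37-fold higher in HFD tissue (limma adjusted p = 0.0154). Rgs18, of blood cells and platelets, was 2.04-fold higher (limma adjusted p = 0.0339). Rgs7, best known from neurons, was 2.74-fold lower (limma adjusted p = 0.0178), and Rgs16 was 2.58-fold lower (limma adjusted p = 0.0232). These regulators do not share a direction, and the genes that rose include ones known from leukocytes. Among effectors, 21 of 24 were measured, 1 rose and 0 fell, with a median difference of 0.15. The 1 that rose was Adcy5, an adenylyl cyclase, which was 1.90-fold higher (limma adjusted p = 0.0232).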

How the data were processed

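The scanner intensity files of 4 one-colour Agilent arrays (Cy3) were used as the authors deposited them, made with Agilent Feature Extraction 11.0.1.1 per the file headers (11.5.1.1 per the submitters' processing notes), with probe positions on mm9. The deposited value table holds each array's processed intensity as a ratio to nearly its 75th percentile, with column medians of 0.130 and 0.131 (HFD) and 0.117 and 0.127 (LFD); its log2 was an alternative. All 4 arrays share 1 slide and 1 scan, and 0 spots were saturated.

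The deposited processed intensity was taken as log2 minus the array's 75th percentile, spots of a probe were averaged, and control spots and spots flagged as outliers (60 to 115 an array) were left out. Probes flagged as well above background on each array of HFD, of LFD or of both were tested with limma 3.58.1 (R 4.3.3, data.table version 1.17.8; lmFit and eBayes, two-sided, 2 residual and 2.23 prior degrees of freedom), with Benjamini-Hochberg adjustment over all 26054. The number of arrays limits the precision. A member well above background on neither array of a diet got its fold with levels there set to each array's lowest well-above-background signal. This fold is not a bound on the difference. In simulated data of 26054 probes with 2600 changed, 81.4% of 2-fold and 94.8% of 4-fold changes were recovered, with 119 false calls among 2546. With 200 changed, these shares were 14% and 84%, with 4 false calls among 148. The simulated variances did not depend on level and had no background floor, so these rates need not hold for dim members.

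Named members are the called probes, up to 4 non-overlapping probes of largest difference in each class, and a panel; pathway genes are up to 4 called genes of smallest p in each list. Of the 56 member probes, 5 are counted but not named or drawn, and are not reported here. Members, classes and lists were chosen with earlier results of these data known. Of the members, 52 probes matched a RefSeq accession, which gave current symbols. Same-numbered arrays did not deviate together (r = -0.0046 over 26054 probes). Alternatives changed the background correction, scaling, filter, flags, variance model, threshold and arrays.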

Additional observations from a re-analysis of the deposited data

How the results depend on the processing

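For the 28 named member probes, 360 differences were computed over 13 alternative settings: 303 kept their direction and their side of the threshold, 44 lost the call, 8 gained it and 5 changed sign. The sign changes were Gpr133 probe A_52_P490395 at 0.15 with normexp, Gpr116 at 0.10 without HFD replicate 2 and 0.06 without LFD replicate 2, and Gpr183 at -0.073 and Gpr18 at -0.0094 without LFD replicate 2; none of these was called in either setting, and the cause was not tested. As single arrays were left out, Gpr116 lay between -0.12 and 0.10, Gpr183 between -0.073 and 0.71 and Gpr18 between -0.0094 and 0.54. The 5 rises were kept with normexp, quantile scaling, median scaling, the deposited value table, outlier spots kept, trended and robust variances, and all 4 arrays required above background; the 3 falls were kept too, except that 2 were with normexp and that 2 of them were tested with all 4 arrays required.

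With no filter on dim probes (41170 tested), counts were 0 for members higher or lower, leukocyte receptors, pathway genes and all probes, with limma unadjusted p under 0.05 for 30 of 129 Gpr-named probes and 8131 in all. With the replicate number as a block (replicate block, 1 residual degree of freedom) all these counts were likewise 0. The limma adjusted p of the called members then ran from 0.0551 to 0.0699. An unadjusted limma p under 0.05 was found for 22 of 56 members and 8719 of 26054 probes. The replicate numbers only name the samples. Members higher numbered 9 with all 4 arrays required, 8 with trended and robust variances and 10 at an adjusted p under 0.10; in these, Gpr56, Gpr162 and Gpr160, the last chosen after its values were seen, passed. Pathway genes higher numbered 5 with median scaling, 13 with all 4 arrays required, 15 with trended and robust variances and 14 at 0.10. All probes higher numbered 1471 as reported, 2389 with normexp (9.17% higher against 6.08% lower), 2364 with all 4 arrays required, 2610 with trended and robust variances and 3392 at 0.10; all probes lower numbered 1300 as reported, 2231 with trended and robust variances and 2916 at 0.10. Leaving out 1 array in turn, with the lone array assumed to vary like the other diet, gave 0 to 3 members higher, 0 to 2 lower, 0 to 1 leukocyte receptors higher, 0 to 2 pathway genes higher, 0 to 1 pathway genes lower, 2 to 552 probes higher and 0 to 335 lower. No fit with the slide as a block was made, since there is a single slide.

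With 2 arrays a diet, 12 of the 56 members were well above background on both arrays of 1 diet alone, so signal over background limits the dim members most. A p that misses the threshold does not show that levels were equal.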
